A study of Mus musculus with 6 samples.

Results

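The genes described here are 10 genes of Notch signalling, taken by symbol from a table of 23404 genes. They are the 4 receptor genes Notch1, Notch2, Notch3 and Notch4, the 4 ligand genes Jag1, Jag2, Dll1 and Dll4, and 2 target genes, Hes1 and Hey1. All 10 were in the table and all 10 passed the filter on low values. Their messenger RNA was measured by RNA sequencing in 2 sorted sub-populations of a cardiomyocyte preparation from C57BL/6J mice, an inbred strain. One was bright in the FITC channel, which records green fluorescence, and dim in forward scatter, which grows with particle size (FITChigh, 3 libraries). The other was dim in FITC and bright in forward scatter (FITCdim, 3 libraries). The labels name no allele, treatment or time for either group. The sources used here do not state the age or sex of the mice, or how many mice went into a library. The purpose given by the series title is to obtain pure ventricular heart muscle cells by their autofluorescence.

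Notch signalling passes between touching cells. A ligand of the Jagged or Delta-like family on one cell binds a Notch receptor on its neighbour, and proteases then release the receptor's intracellular part, which enters the nucleus. There it joins the DNA-binding protein RBPJ and a Mastermind co-activator and switches on genes of the Hes and Hey families, which encode transcriptional repressors. In blood vessels Notch1, Notch4 and Dll4 are best known from endothelial cells, where they take part in sprouting and arterial identity, and Notch3 from smooth muscle cells and pericytes.

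Reads counted to genes, as recovered from the deposited values, came to 1589825 to 2931045 per library in FITChigh and 1705626 to 3345996 in FITCdim. The unit of every level here is the adjusted read count, in which the reads of each library were adjusted to a shared library size. A read equalled 0.607 to 1.54 of it on average, depending on the library. The adjustment is not a plain scaling, so the worth of a read also differs between genes. The 1 read of Jag1 in FITChigh replicate 2, for example, gave 2.33. Of 12 cardiomyocyte markers, 1 rose in FITChigh and 0 fell, and their summed level was 349993 to 374092 in FITChigh against 218612 to 273346 in FITCdim. That sum was led by Myh6, with means of 159480 and 96706, which did not pass. The adjusted counts of all genes also differed, at 2333473 to 2443707 in FITChigh against 2030583 to 2112872 in FITCdim. The labelled cell type was thus plain in both gates. Markers of other cells were lower in FITChigh in nearly every case. All 19 endothelial markers fell, as did 9 of 10 pericyte and smooth muscle markers, all 8 tested of 9 fibroblast markers, all 10 tested of 11 macrophage markers and all 5 atrial myocyte markers. Over all genes tested, 13.5% fell. The marker lists and the 10 Notch genes were chosen with earlier results of these data known. The fibroblast marker Tcf21 and the macrophage marker Fcgr1 were not tested. They were listed at 0 in every FITChigh library but were hardly read in FITCdim either, with 4 and 7 reads over its libraries. In bulk samples such as these, fewer cells of a type and less RNA per cell cannot be told apart.

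Of the 10 Notch genes, 8 were lower in FITChigh, 0 were higher, and Notch2 and Hes1 did not pass the test. Of all 12907 genes tested, 1748 were lower, which is 13.5%, and 324 were higher, which is 2.51%. The median log2 fold change, FITChigh minus FITCdim, was -2.43 over the 10 Notch genes and -0.01 over all genes tested. The libraries of the gates did not overlap, with FITChigh lower, for 8 of the 10 and for 20.2% of all genes tested (31.6% in either direction). The endothelial markers summed to 919.7 to 1262 in FITChigh against 6677 to 7661 in FITCdim, and the part of endothelial and other non-muscle cells in these differences was not tested. Testing was by limma on log2(adjusted read count + 1), with Benjamini-Hochberg adjustment over all genes and a threshold of 0.05, a scale on which the change of a low gene comes out too small. All 15 alternatives gave 8 lower Notch genes, though some of them, such as other filters, leave each fold change as it is and could change only the adjusted p. Higher genes made up 15.6% of all calls, but 1.84% (41 higher, 2189 lower) when each library was rescaled to one total, where the median of all genes moved to -0.20. Quantile normalization gave 27.8% (467 higher, 1213 lower) and put that median at 0.13. The count of all lower genes was 1156 without FITCdim replicate 1. The count of all higher genes was 67 or 184 when FITChigh replicate 1 or 2 was left out, and 85 or 215 when FITCdim replicate 1 or 3 was left out.

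**Figure D1:**
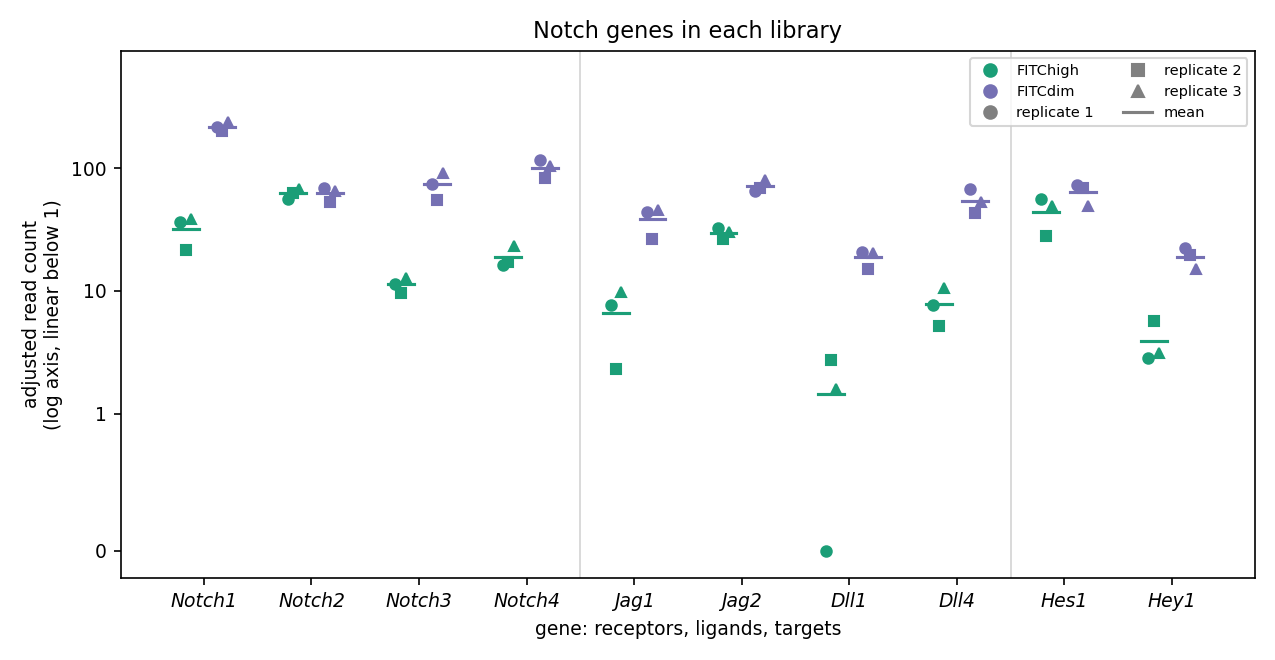
Adjusted read count of each Notch gene in every library, on an axis that is logarithmic above 1 and linear below it, with FITChigh in green at the left of each pair and FITCdim in purple at the right. Symbols mark the replicates and short lines the group means; for Notch2 the gates lie at the same height, with means of 62.4 and 62.2, while for Notch1 the FITChigh libraries lie between 21.6 and 38.6 and the FITCdim libraries between 199.6 and 236.

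Among the receptors, Notch1, Notch3 and Notch4 fell and Notch2 stood level. Notch1 (chromosome 2, 26457903 to 26516663, minus strand, in mm10), the receptor with the widest known roles in endothelium, had 36.3, 21.6 and 38.6 adjusted read counts in the FITChigh libraries and 215, 199.6 and 236 in the FITCdim libraries. Every FITChigh library was far below every FITCdim library. The log2 fold change was -2.76 (SE 0.21, adjusted p = 2.7e-07), which is 6.76-fold lower in FITChigh. Notch4 (chromosome 17, 34564268 to 34588503, plus strand), a receptor found mainly in endothelial cells, had 16.2, 17.3 and 23.4 in FITChigh against 116, 82.4 and 103 in FITCdim, again without overlap. It stood at -2.35 (SE 0.23, adjusted p = 3.2e-06).

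Notch3 (chromosome 17, 32120820 to 32166852, minus strand), the receptor of vascular smooth muscle and pericytes, had 11.5, 9.62 and 12.8 in FITChigh against 74.0, 55.3 and 91.9 in FITCdim. The gates did not overlap and the FITChigh libraries lay close together, though Notch3 rested on only 12, 6 and 16 reads there. Its log2 fold change was -2.58 (SE 0.27, adjusted p = 5.3e-06).

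Notch2 (chromosome 3, 98013527 to 98150361, plus strand), a receptor known for its part in liver bile ducts and in the heart's outflow tract, had 56.3, 63.0 and 67.9 in FITChigh against 69.1, 52.5 and 64.9 in FITCdim. The gates overlapped fully, and the means were 62.4 ± 5.85 and 62.2 ± 8.65 (n = 3 each, SD). The log2 fold change was 0.01 with a 95% interval from -0.41 to 0.43 (adjusted p = 0.98). That interval runs from 0.755-fold to 1.34-fold and leaves out the size of change seen in each of the other 3 receptors. With each library rescaled to one total the value was -0.19 (adjusted p = 0.62), beside a median of all genes of -0.20.

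To set the receptors against each other within a library, the log2 ratio of Notch2 to each of the others was taken. Notch2 over Notch1 was 0.97 ± 0.47 in FITChigh and -1.79 ± 0.15 in FITCdim (n = 3 each, SD), a difference of 2.77. Notch2 over Notch3 differed by 2.59 and Notch2 over Notch4 by 2.36, and in each of these ratios the 3 FITChigh libraries lay above the 3 FITCdim libraries. The exact two-sided permutation test gave p = 0.1 for each, the smallest that 3 against 3 libraries allow, and 0.1 after adjustment over the 7 ratios tested. All 7 ratios were chosen after the values were seen, and their differences follow from the fold changes of the genes.

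The promoters of 3 receptor genes and of Dll4 are shown at starts that RefSeq annotates on build GRCm38.p6, which mm10 denotes, with Notch2 as the gene that stood level and the other 3 as genes that fell together. Each window runs from 250 bases before the annotated start to 30 bases after it, 5′ to 3′ on the gene's strand, with capitals for matches to a motif. They lie at chr2:26503793-26504072 (minus strand) for Notch1, chr3:98013288-98013567 (plus strand) for Notch2, chr17:34564045-34564324 (plus strand) for Notch4 and chr2:119325534-119325813 (plus strand) for Dll4. The Notch1 window lies inside the span given above, which GENCODE extends further upstream.
Notch1: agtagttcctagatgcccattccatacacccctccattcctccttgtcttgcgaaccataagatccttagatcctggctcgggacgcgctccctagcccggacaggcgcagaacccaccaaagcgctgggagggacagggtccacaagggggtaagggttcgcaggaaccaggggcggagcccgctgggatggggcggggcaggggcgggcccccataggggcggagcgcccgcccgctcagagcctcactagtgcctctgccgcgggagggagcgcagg
Notch2: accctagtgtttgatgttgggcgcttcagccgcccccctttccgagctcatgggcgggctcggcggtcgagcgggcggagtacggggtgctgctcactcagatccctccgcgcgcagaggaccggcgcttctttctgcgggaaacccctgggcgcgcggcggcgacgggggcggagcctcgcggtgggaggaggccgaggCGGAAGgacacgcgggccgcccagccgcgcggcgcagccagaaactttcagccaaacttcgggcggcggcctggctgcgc
Notch4: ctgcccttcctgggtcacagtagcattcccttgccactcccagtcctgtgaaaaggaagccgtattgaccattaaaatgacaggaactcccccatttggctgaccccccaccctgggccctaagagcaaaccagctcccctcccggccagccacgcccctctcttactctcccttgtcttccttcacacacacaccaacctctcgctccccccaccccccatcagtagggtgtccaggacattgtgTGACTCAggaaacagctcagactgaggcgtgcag
Dll4: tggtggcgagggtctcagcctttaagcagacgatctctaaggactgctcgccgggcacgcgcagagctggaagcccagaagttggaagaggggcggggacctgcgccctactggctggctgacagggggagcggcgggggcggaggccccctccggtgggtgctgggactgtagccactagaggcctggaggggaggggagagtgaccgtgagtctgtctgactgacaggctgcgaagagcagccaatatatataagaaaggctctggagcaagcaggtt
The motifs searched, on both strands, were TGGGAA for RBPJ, TGANTCA for AP-1 and CGGAAG for ETS factors, and none of these letters overlapped another in the windows shown. Notch2 held CGGAAG from base -50 and Notch4 held TGACTCA from base -4, while the windows of Notch1 and Dll4 held no match. Over all 32851 promoter windows of this length, 23.8% held the RBPJ letters, 7.46% the AP-1 letters and 16.0% the ETS letters. Windows were found for 8 of the 10 genes, and beside those shown, 1 of the windows of Dll1 held TGATTCA. The GC content was 66.8% for Notch1, 72.5% for Notch2, 58.2% for Notch4 and 63.2% for Dll4.

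All 4 ligand genes were lower in FITChigh, Jag2 by the least. Dll4 (chromosome 2, 119325784 to 119335962, plus strand), the Delta-like ligand of arterial and sprouting endothelium, had 7.63, 5.19 and 10.6 adjusted read counts in FITChigh against 68.0, 42.7 and 52.6 in FITCdim. No library of one gate reached the other, and Dll4 rested on 8, 3 and 13 reads in the FITChigh libraries. The log2 fold change was -2.68 (SE 0.32, adjusted p = 1.9e-05).

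Jag1 (chromosome 2, 137081456 to 137116644, minus strand), the Jagged ligand whose human counterpart is mutated in Alagille syndrome, had 7.65, 2.33 and 9.81 in FITChigh against 44.2, 26.7 and 45.4 in FITCdim. The lowest FITChigh library rested on 1 read, and the gates did not overlap. The log2 fold change was -2.52 (SE 0.42, adjusted p = 4.9e-04). Dll1 (chromosome 17, 15367354 to 15376872, minus strand), the Delta-like ligand of early development that is also made by some vessels, had 0, 2.77 and 1.60 against 20.9, 15.2 and 20.5. It rested on 4 reads over the FITChigh libraries and 64 over the FITCdim libraries. Its log2 fold change was -3.20 (SE 0.50, adjusted p = 2.6e-04), and its size depended on the setting, from -1.90 with a pseudocount of 5 to -3.75 with limma-voom. It stood at -2.65 without FITChigh replicate 1. A ratio of reads per library size of 0.0705 had an exact 95% counting interval from 0.0186 to 0.19, which covers counting error only.

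Jag2 (chromosome 12, 112907819 to 112929776, minus strand), the second Jagged ligand, had 32.5, 26.7 and 30.3 in FITChigh against 65.0, 69.4 and 79.6 in FITCdim. The libraries of a gate lay close together and the gates apart. Its log2 fold change of -1.23 (SE 0.21, adjusted p = 6.2e-04) is 2.35-fold. Within a library, the log2 ratio of Jag2 to Jag1 was higher in FITChigh by 1.29, that to Dll1 by 1.97 and that to Dll4 by 1.45, without overlap between the gates (exact two-sided permutation p = 0.1 each, 0.1 adjusted over the 7 ratios). The ratio to Dll1, which rests on the 4 Dll1 reads of FITChigh, differed by 1.36 without FITChigh replicate 1 and by 0.77 with a pseudocount of 5. That to Jag1 differed by 0.85 without FITChigh replicate 2 and by 0.82 with a pseudocount of 5. The ligand ratios, too, were chosen after the values were seen and follow from the fold changes of the ligands.

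**Figure D2:**
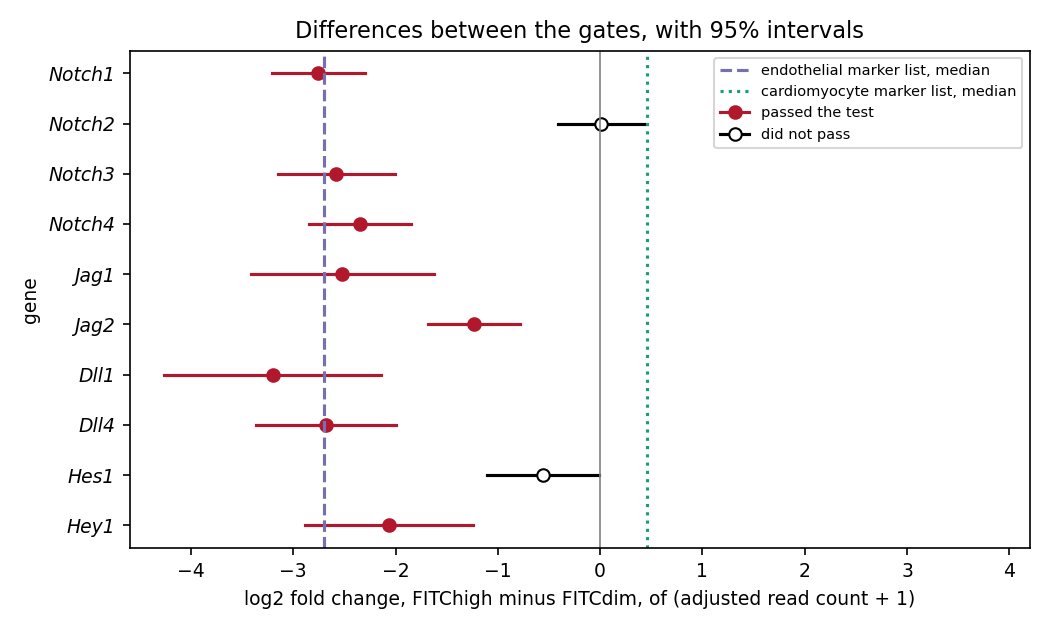
Log2 fold change of each Notch gene, FITChigh minus FITCdim, with its 95% interval; filled red points passed the test and open points did not. The dashed line is the median of the endothelial marker list at -2.70 and the dotted line that of the cardiomyocyte list at 0.46: the intervals of Jag2, Notch2 and Hes1 lie to the right of the dashed line.

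The 2 target genes differed from each other. Hey1 (chromosome 3, 8663359 to 8667256, minus strand), a repressor induced by Notch in vessels and heart, had 2.84, 5.73 and 3.11 adjusted read counts in FITChigh against 22.3, 19.8 and 15 in FITCdim. It rested on 11 reads over the FITChigh libraries, and the gates did not overlap. The log2 fold change was -2.06 (SE 0.39, adjusted p = 0.0014). Hes1 (chromosome 16, 30064384 to 30067796, plus strand), a repressor that answers Notch and other signals in many cell types, had 55.5, 28.2 and 48.8 against 72.9, 69.1 and 49.5. The highest FITChigh library was above the lowest FITCdim library. Hes1 stood at -0.56 with a 95% interval from -1.11 to -0.01 (adjusted p = 0.17). The log2 ratio of Hes1 to Hey1 was 3.20 ± 0.95 in FITChigh and 1.69 ± 0.05 in FITCdim (n = 3 each, SD), without overlap (exact two-sided permutation p = 0.1, 0.1 adjusted over the 7 ratios). Their difference was 1.51, and 0.92 with a pseudocount of 5. This ratio, too, was chosen after the values were seen and follows from the fold changes of both genes.

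Levels of different genes can be compared once divided by gene length, here the summed exon length of the GENCODE annotation. By adjusted read counts per kilobase, Hes1 was first of the 10 genes in both gates, at 21.7 ± 6.99 in FITChigh and 31.3 ± 6.18 in FITCdim (n = 3 each, SD). Behind it the order changed. In FITChigh, Notch2 followed at 5.79 ± 0.54 and Jag2 at 4.28 ± 0.42 per kilobase, each apart from its neighbours in the order. The next were Notch4 at 2.35, Notch1 at 2.26, Dll4 at 2.02, Notch3 at 1.40, Hey1 at 1.19, Jag1 at 1.13 and Dll1 at 0.345, and the library ranges of each pair of neighbours among these overlapped. In FITCdim, Notch1 followed Hes1 at 15.2 per kilobase, then Dll4 at 14.1, Notch4 at 12.5, Jag2 at 10.2, Notch3 at 9.11, Jag1 at 6.66, Hey1 at 5.83, Notch2 at 5.77 and Dll1 at 4.47. There Hes1 alone stood apart from its neighbour. With the longest coding transcript as the length, the first 3 genes in FITChigh and the first 2 in FITCdim kept their places. In FITChigh Notch1 then came before Notch4 and Hey1 before Notch3. In FITCdim Notch4 came before Dll4 and Hey1 before Jag1.

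Notch2 made up 46.6%, 54.7% and 46.7% of the summed receptor level per kilobase in the FITChigh libraries and 14.2%, 13.5% and 12.9% in the FITCdim libraries. It was thus the largest receptor share in each FITChigh library and the smallest in each FITCdim library. The share of Notch1 was 19.0% ± 4.41 in FITChigh and 36.0% ± 2.78 in FITCdim, and that of Notch4 was 19.8% ± 1.80 and 29.2% ± 2.45 (n = 3 each, SD). Among the ligands, Jag2 made up 58.6%, 61.4% and 47.5% in FITChigh and 23.6%, 34.1% and 30.3% in FITCdim. Dll4 held 25.5% ± 4.22 in FITChigh and 39.6% ± 4.48 in FITCdim (n = 3 each, SD). These shares follow from the levels above and carry no test of their own. They rest on the summed exon length, which for Notch1 is 14232 bases, against 9488 in its longest coding transcript. With transcript lengths Notch1 came before Notch4 in FITChigh.

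**Figure D3:**
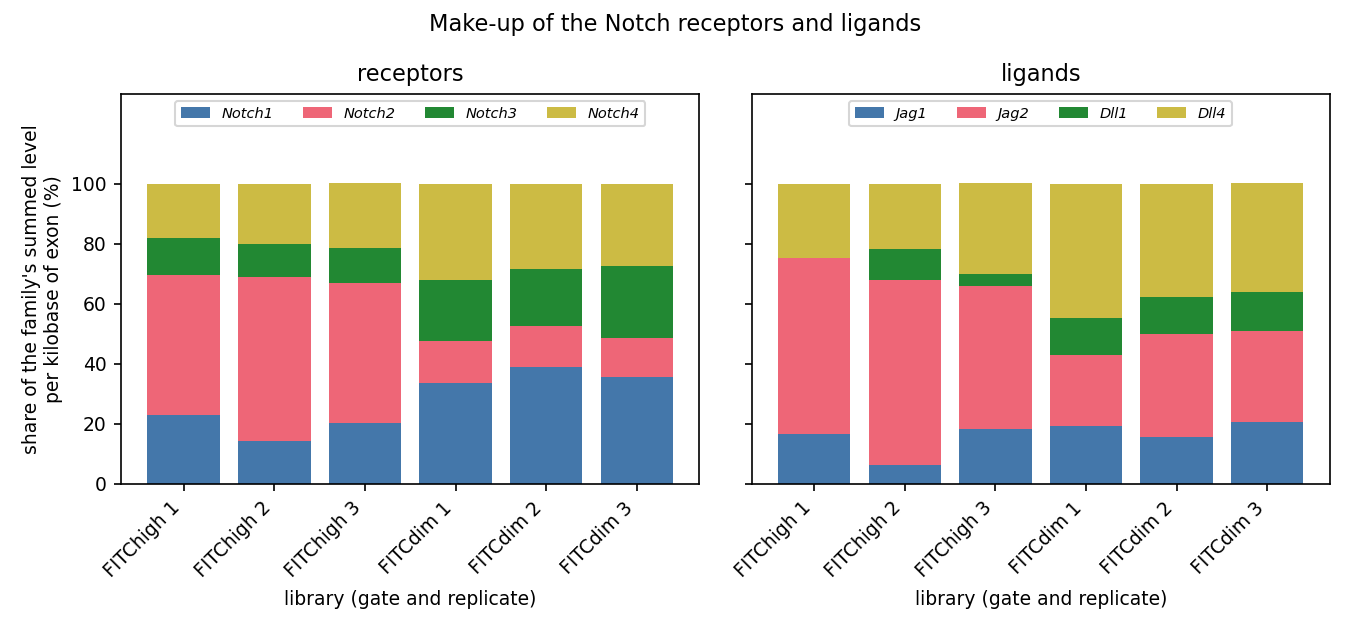
Share of each gene in the summed level per kilobase of the receptors (left panel) and of the ligands (right panel), 1 bar per library, FITChigh bars at the left. Notch2 takes 46.6% to 54.7% of the receptor bar in FITChigh and 12.9% to 14.2% in FITCdim, and Jag2 takes 47.5% to 61.4% and 23.6% to 34.1% of the ligand bar.

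The Notch genes were then set against the endothelial markers of the same library. The 19 markers summed to 919.7, 1262 and 1192 adjusted read counts in FITChigh against 7661, 6677 and 6685 in FITCdim. Per 1000 of these, Notch1 stood at 39.5, 17.1 and 32.4 in FITChigh and at 28.1, 29.9 and 35.3 in FITCdim, so the range of FITChigh enclosed that of FITCdim. Dll4 stood at 7.09 ± 2.59 and 7.71 ± 1.24, Jag1 at 6.13 ± 3.71 and 5.52 ± 1.41, and Notch3 at 10.3 ± 2.45 and 10.6 ± 2.84 (n = 3 each, SD). Notch4 was at 17.0 ± 3.02 and 14.3 ± 1.69 and Hey1 at 3.41 ± 1.00 and 2.71 ± 0.40. For these 6 genes the gates overlapped on this scale. The scale is not particular to endothelium. The FITChigh over FITCdim ratio was 0.16 for the endothelial sum and also 0.16 for the macrophage sum. It was 0.12 for the fibroblast sum, 0.195 for the atrial sum and 0.386 for the pericyte and smooth muscle sum. Which cell type these genes follow was not tested. Taken as log2 ratios of values + 1, the differences between the gates were -0.11 for Notch1, -0.03 for Dll4, 0.13 for Jag1, 0.07 for Notch3, 0.30 for Notch4 and 0.59 for Hey1 (exact two-sided permutation p = 0.9, 1, 0.9, 1, 0.3 and 0.1). With 1 added, which raises this ratio for genes as low as Hey1, the libraries of Hey1 no longer overlapped.

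Notch2, Hes1 and Jag2 were higher relative to the endothelial markers in every FITChigh library. Per 1000 marker counts, Notch2 had 61.2, 49.9 and 57.0 in FITChigh against 9.02, 7.86 and 9.72 in FITCdim, a log2 difference of 2.66. Hes1 had 60.3, 22.3 and 40.9 against 9.52, 10.3 and 7.40 (2.09), and Jag2 had 35.3, 21.1 and 25.4 against 8.48, 10.4 and 11.9 (1.42). Each gave an exact two-sided permutation p = 0.1, the smallest possible here. These differences follow from each gene's own fold change and from the marker sum, which in FITChigh was 0.16 of that in FITCdim. A gene that stood level between the gates would also come out higher on this scale. How many of the tested genes do so was not counted, so these p-values add nothing to the fold changes. Dll1 had 0, 2.20 and 1.34 against 2.73, 2.27 and 3.06, lower in each FITChigh library, though not separated on the log2 scale with 1 added (-0.55, exact two-sided permutation p = 0.3). The sign of the difference turned for Notch1 at 0.24 and for Dll4 at 0.29 without FITChigh replicate 2, and for Dll4 at 0.08 without FITCdim replicate 1. For Jag1 it turned when FITChigh replicate 1 (-0.18), FITChigh replicate 3 (-0.16) or FITCdim replicate 2 (-0.08) was left out, and for Notch3 when FITChigh replicate 1 (-0.08) or FITCdim replicate 2 (-0.09) was.

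**Figure D4:**
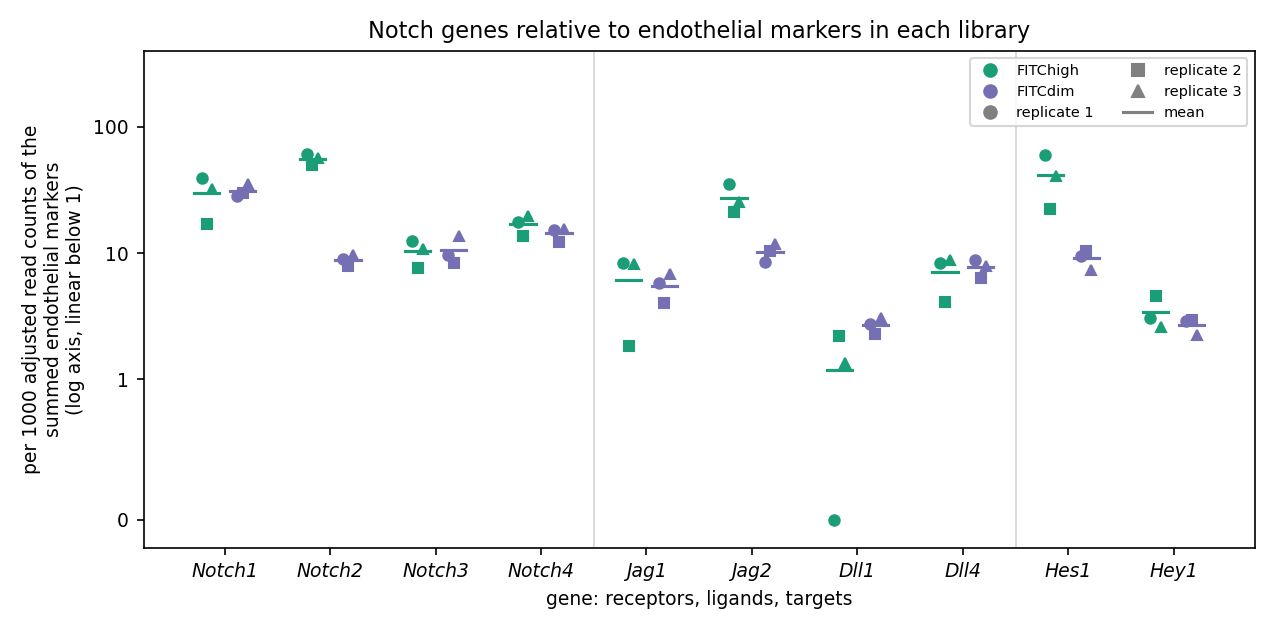
Each Notch gene per 1000 adjusted read counts of the summed endothelial markers of the same library, on an axis that is logarithmic above 1 and linear below it, FITChigh in green and FITCdim in purple. Symbols mark the replicates and short lines the means; Notch2 lies at 49.9 to 61.2 in FITChigh against 7.86 to 9.72 in FITCdim, while Notch1, Notch3, Notch4, Jag1, Dll4 and Hey1 overlap between the gates.

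Notch3 was also set against the pericyte and smooth muscle markers, a choice made after the values were seen. Per 1000 of their summed counts it had 23.6, 21.5 and 34.1 in FITChigh against 52.7, 54.6 and 94.0 in FITCdim, a log2 difference of -1.22 (exact two-sided permutation p = 0.1). That sum was 377 to 486 in FITChigh against 977 to 1404 in FITCdim and was led by Acta2, smooth muscle actin, at 304 ± 55.7 and 414 ± 78.5 (n = 3 each, SD), the 1 marker of this list that did not pass. The log2 fold changes of the 10 markers ran from -3.11 for Tagln to -0.45 for Acta2, with a median of -2.42, beside -2.58 for Notch3. The macrophage sum was 93.9 to 129.7 in FITChigh against 489 to 1114 in FITCdim, the fibroblast sum 46.0 to 70.5 against 383 to 732, and the atrial sum 201 to 443 against 1138 to 2453.

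The list of other pathway genes holds the enzymes, regulators and further targets of Notch signalling. Of 49 further Notch pathway genes, 39 were tested, of which 10 fell in FITChigh, 0 rose and 29 did not pass, with a median log2 fold change of -0.26. Over all genes tested, 13.5% fell, the share against which this count and those of the roles below stand. The count of lower genes was 6 after quantile normalization and 5 without FITCdim replicate 1. Of 5 genes for sugar modification of the receptor, Mfng and Lfng fell, a pair of Fringe enzymes that lengthen sugars on Notch and shift its choice of ligand. Mfng had 0.937, 1.61 and 2.45 adjusted read counts in FITChigh against 24.9, 27.0 and 20.7 in FITCdim (-3.27, SE 0.40, adjusted p = 2.5e-05), and Lfng stood at -1.98 (adjusted p = 0.007). Mfng rested on 5 reads over the FITChigh libraries and 81 over the FITCdim libraries, and Lfng on 6 and 41. The third Fringe gene, Rfng, the most read of this role, stood at 0.25 (adjusted p = 0.46).

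Of 10 genes for receptor cleavage, 1 fell, Adam10, the protease of the cut outside the membrane, at -0.75 (SE 0.17, adjusted p = 0.0057). It had 81.0, 89.8 and 118 in FITChigh against 158, 163 and 159 in FITCdim. The presenilin and other gamma-secretase genes did not pass, and Furin, which processes the receptor precursor and had the highest mean of the role, stood at -0.13 (adjusted p = 0.66). Of 4 genes for ligand endocytosis Mib1, a ubiquitin ligase of Delta-like and Jagged ligands, fell (-1.05, SE 0.32, adjusted p = 0.036), and Mib2, the highest, was at 0.29 (adjusted p = 0.37). Among 7 tested genes of receptor turnover, Numb, an inhibitor of Notch, fell (-0.75, adjusted p = 0.017), as did Dtx4, a Deltex ubiquitin ligase (-1.94, adjusted p = 0.043), whose libraries overlapped between the gates. Dtx4 rested on 1 read over the FITChigh libraries and 18 over the FITCdim libraries. Fbxw7, which marks the cut receptor for breakdown and was the highest of that role, stood at 0.08 (adjusted p = 0.79).

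In the nucleus, 2 of 9 tested genes fell, both of them Mastermind co-activators. Maml2 stood at -2.38 (SE 0.41, adjusted p = 6.3e-04), with 4.43 ± 2.75 in FITChigh against 25.2 ± 4.64 in FITCdim, and Maml1 at -0.78 (SE 0.23, adjusted p = 0.026). Rbpj, the DNA-binding partner of all 4 receptors, stood at 64.9 ± 20 against 59.3 ± 8.63 (n = 3 each, SD; 0.10, adjusted p = 0.83). Of 4 tested further targets, Nrarp, a feedback inhibitor of Notch, fell (-2.32, SE 0.40, adjusted p = 6.7e-04), and so did Heyl (-1.50, SE 0.29, adjusted p = 0.0016). Hey2, a transcriptional repressor found in the ventricular muscle wall, had 18.2, 17.0 and 16.7 in FITChigh against 12.5, 14.8 and 13.7 in FITCdim. Each FITChigh library was higher, as for 11.4% of all genes tested. Hey2 did not pass (0.32, adjusted p = 0.55), nor did Hes6, the highest of the role over both gates (0.08, adjusted p = 0.87). The other Hes genes on the list, Hes2, Hes3, Hes5 and Hes7, were listed at 0 in every library. The same held for the ligands Dll3 and Dner, while Dlk1 and Dlk2 were too low to test.

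**Figure D5:**
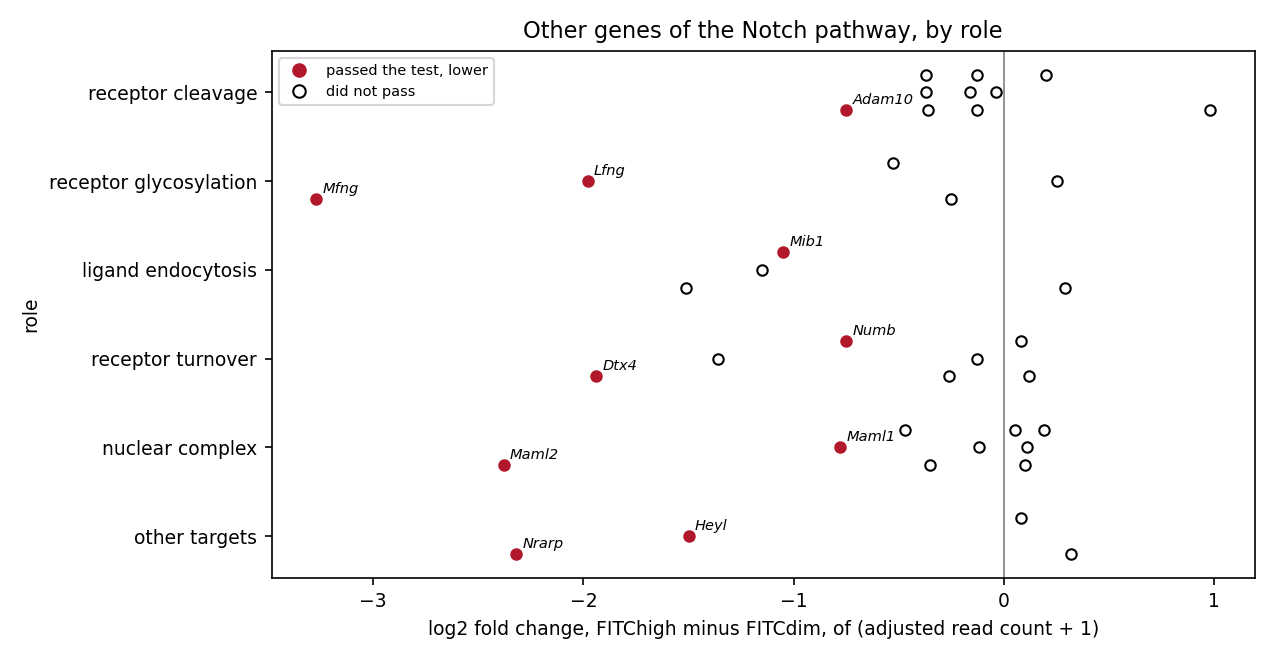
Log2 fold change, FITChigh minus FITCdim, of the tested pathway genes other than the 10 Notch genes, in rows by role; filled red points with names passed the test and open points did not. The named points lie between -3.27 for Mfng and -0.75 for Adam10 and Numb, and most open points lie near 0.

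The genes whose pattern over the 6 libraries was most like that of a lower Notch gene were sought among 9497 named genes with a mean of at least 10 adjusted read counts. Likeness was the root mean square difference between log2 profiles, each centred on its own mean. For Notch1 these were Inf2 (0.107) and Bmp6 (0.121), for Notch4 App (0.112) and Epb4.1l2 (0.121), and for Notch3 Prkd2 (0.103) and Rgs16 (0.14). For Dll4 they were Nid1, a basement membrane protein (0.11), and Tspan2 (0.12), for Jag1 Nav1 (0.113) and Zfp366 (0.16), and for Dll1 Gbp5 (0.168) and Steap4 (0.218). Jag2 had the nearest of all in Dab2ip (0.0374), which had 86.4 ± 6.52 in FITChigh against 199 ± 14.7 in FITCdim (n = 3 each, SD), followed by Cdon (0.0685). Nearest to Hey1 were Klf2, a shear-responsive transcription factor of endothelium (0.132), and Car4, a capillary carbonic anhydrase (0.137). This is a description of 6 libraries in 2 groups and carries no test.

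Part of the exon sequence of some of these genes is shared with genes on the other strand, and the sources used here do not say whether the authors' counting used strand. Such a stretch made up 20.5% of the exon length of Dll1, 7.5% and 2.91% of that of Notch1, 6.03% of that of Notch3 and 5.56% of that of Dll4. If it did not, reads there cannot be told apart from those of the partner gene. A further 5.02% of the exon length of Notch2 is shared with an unclassified transcript on its own strand.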

How the data were processed

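RNA from 6 sorted samples was made into strand-specific mRNA libraries and sequenced as paired reads of 75 bp, per the labels' protocols. STAR 2.5, edgeR and build mm10 are named for the authors' work in the submitters' processing notes. The sources used here do not state their settings, the counting program or the annotation. What the authors deposited is a signal for each gene in each library, namely reads adjusted to a shared library size. Of 23410 gene lines, 6 were garbled and left out.

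The values recur in patterns that an inverted negative binomial quantile adjustment (fitted dispersion 0.0203) explains. In every library 100% of the values of genes read in that gate came out as whole reads within 0.1, and all were recomputed within 0.0001. Recovered reads served for depth, counting intervals (exact, 95%) and 1 alternative test.

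The 12907 genes that reached 1 in 3 or more libraries were tested by limma-trend on log2(value + 1) with no block (limma 3.58.1, R 4.3.3). Ratios were tested by exact permutation over libraries (SciPy 1.17.1). The fit was tested on simulated data. The series text calls the replicates biological, and they are numbered in accession order. Libraries of a group differed beyond sampling noise, with 3.63 to 6.09 as the chi-square over its degrees of freedom. Of the pathway lists, each called gene and the highest of each role are named, except 1 gene that is not reported here, and for each called Notch gene the 2 genes of most similar pattern. Other named genes were chosen after their values were seen. The members and lists were chosen with earlier results of these data known. One list symbol, Adgre1, was matched as Emr1. Alternatives were pseudocounts, filters, scalings, robust fitting, limma-voom on recovered reads, a block and leaving out each library.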

Additional observations from a re-analysis of the deposited data

How the results depend on the processing

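All 8 lower Notch genes kept their direction and passed the test in each of the 15 alternatives, and Hes1 stayed below 0 without passing in any of them (adjusted p 0.061 to 0.54). The other filters, robust fitting and the block leave each gene's fold change as it is, so there only the adjusted p could change. Under the stricter filter, Jag1, Dll1 and Hey1 reached the required value of 10 in FITCdim only. Notch2, at 0.01, changed sign at -0.19 with each library rescaled to one total, at 0.00 with limma-voom on recovered reads and within -0.11 to 0.09 over the libraries left out. It passed in none (adjusted p 0.62 to 1). Over all genes, the count of higher genes (324) was 41 with one common total and 1064 with a replicate block by the tag that the titles share, and 67 to 337 over the libraries left out. That of lower genes (1748) was 1156 to 1667 there. The labels do not say whether the tags pair the libraries. The deviations of same-tagged libraries correlated at 0.07, 0.13 and 0.17 across genes, each library best with its own tag, and the block left 8 of the Notch genes lower. Of the other pathway genes 10 were lower, but 6 after quantile normalization and 5 to 9 over the libraries left out. Relative to the endothelial sum, values near 0 changed sign over the libraries left out: Notch1 ran from -0.35 to 0.24, Notch3 from -0.09 to 0.27, Jag1 from -0.18 to 0.74 and Dll4 from -0.20 to 0.29. Dll4 stood at 0.02 against Pecam1 alone, and Notch3 at -1.22 against the pericyte and smooth muscle sum, chosen after seeing the data. The cause was not tested. Among the 10 Notch genes depth limits Dll1 most, at 4 reads over FITChigh. The called pathway genes Dtx4, Mfng and Lfng rest on 1, 5 and 6 reads there.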
